A study of Mus musculus with 4 samples.

Results

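The genes described here are 8 complement components and receptors, C1qa, C1qb, C1qc, C3, Cfp, Cfb, C3ar1 and C5ar1, chosen by symbol from the 32285 genes of 4 single-cell RNA-seq libraries. All 8 were found in the files and all 8 had UMIs (unique molecular identifiers, 1 count per captured RNA molecule) in every library. The libraries were made from myeloid-derived suppressor cells (MDSCs), immature myeloid cells that restrain T cells, grown for 4 days from mouse bone marrow with IL-6 and GM-CSF at 40 ng/ml each. Isoproterenol (ISO), a synthetic catecholamine, was given at 10 µM to some of the cultures and PBS to the rest. Live CD11b+ cells were sorted, pooled and captured together, so cells that lack CD11b are not represented. Whether a culture came from 1 mouse or from pooled mice was not given in the sources used here.

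The groups compared were WT + PBS and WT + ISO, both from wild-type mice, with 1 library each, and the study used mice of 6 to 10 weeks. The other libraries came from mice lacking the β2-adrenergic receptor, 1 with PBS and 1 with ISO, and are not compared here. All 4 libraries entered the clusters and the sums over libraries, so those values are not of wild-type cells alone. All 4 cultures received IL-6 and GM-CSF. The titles and the methods place ISO in only the + ISO groups, although the treatment field of the labels names isoproterenol for every sample, and the titles were followed. After filtering, the libraries held 2039 to 2790 cells and 19357824 to 29400468 UMIs. Levels are given as counts per 1000000 UMIs of the same cells (CPM). With 1 library per group there is no replicate check and no test was made. All intervals are exact 95% intervals, by Poisson limits for levels, Clopper-Pearson limits for shares and a binomial given the total for ratios. They hold counting error alone and leave out the spread between cultures and mice.

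The complement system is a set of plasma and cell-derived proteins that tag microbes and dying cells. C1q, built from the chains encoded by C1qa, C1qb and C1qc, starts the classical pathway and is made mainly by macrophages and some dendritic cells rather than by the liver. C3 is the central component at which all routes meet, factor B (Cfb) and properdin (Cfp) build and stabilize the alternative pathway convertase, and C3ar1 and C5ar1 are the receptors for the small fragments C3a and C5a, which attract and activate myeloid cells.

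The multiplexing tags are short barcodes that mark the cells of each culture before pooling. A tag of its own led in all 2232 deposited cells of WT + PBS and all 2300 of WT + ISO, and no cell barcode was shared between libraries. If pooled cells were assigned to libraries by these tags, both follow from that assignment. They are therefore not an independent check of it.

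The 3 C1q genes are neighbours. In the build GRCm38.p6 they lie on chromosome 4 in the order C1qb (chr4:136880126-136886200), C1qc (chr4:136889801-136892936) and C1qa (chr4:136895916-136898844), within 18719 bases in all, with 3600 bases between C1qb and C1qc and 2979 between C1qc and C1qa. C3 (chr17:57203967-57228136) and Cfb (chr17:34856374-34862514) are on chromosome 17. There 87 bases separate Cfb from C2, a related gene of the classical pathway. Reads from transcripts that run across this gap could be counted for the wrong gene. Cfp lies at chrX:20925454-20931555, C3ar1 at chr6:122847140-122856157 and C5ar1 at chr7:16246743-16259540, where it is separated by 2588 bases from C5ar2, which encodes the other C5a receptor.

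RefSeq promoter windows of the same build were held for 6 of the 8 members, C1qb, C1qc, C3, Cfp, C3ar1 and C5ar1. The sequences before the start of C1qb and C1qc are shown because, of the members with a window, these had the largest differences with ISO, and that of C3 because its level was nearly the same in both WT libraries. Capitals mark matches to the ETS core AGGAAG, the kind of site bound by the macrophage factor PU.1, or to the C/EBP site TTGCNNAA, read on either strand.
C1qb, 250 bases, chr4:136886201-136886450, minus strand: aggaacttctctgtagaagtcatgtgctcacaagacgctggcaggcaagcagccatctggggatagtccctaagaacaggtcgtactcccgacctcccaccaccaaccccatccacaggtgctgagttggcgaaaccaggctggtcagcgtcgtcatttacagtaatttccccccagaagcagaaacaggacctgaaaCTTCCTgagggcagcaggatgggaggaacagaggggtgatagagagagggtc
C1qc, 228 bases, chr4:136892937-136893164, minus strand: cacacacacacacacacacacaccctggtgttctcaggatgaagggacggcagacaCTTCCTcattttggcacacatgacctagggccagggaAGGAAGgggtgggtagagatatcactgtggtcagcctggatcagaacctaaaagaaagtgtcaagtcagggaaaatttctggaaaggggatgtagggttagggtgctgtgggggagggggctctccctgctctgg
C3, 250 bases, chr17:57228137-57228386, minus strand: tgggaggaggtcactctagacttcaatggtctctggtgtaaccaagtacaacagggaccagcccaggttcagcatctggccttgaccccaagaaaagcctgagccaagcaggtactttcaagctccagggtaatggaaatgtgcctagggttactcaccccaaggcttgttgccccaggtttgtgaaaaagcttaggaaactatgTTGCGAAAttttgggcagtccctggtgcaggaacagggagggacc

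In the 250 bases before the start, AGGAAG was found once for C1qb, in 2 places for C1qc and in 3 for C5ar1 (of which 2 overlap), and in none for C3, Cfp and C3ar1. For C5ar1 only 48 of these bases lie outside the annotated gene, and its 3 matches lie inside it. Of all 32851 windows of that length, 29.5% held it. TTGCNNAA was found only for C3, as TTGCGAAA beginning 45 bases before the start, and in 9.56% of all windows. The half-site TGACG of the cAMP response element was found only for C1qb, on the opposite strand as CGTCA beginning 99 bases before the start, and in 17.8% of all windows. The AP-1 site TGANTCA was found only for C3ar1 (6.75% of all windows), as was TATAAA (12.4% of all windows). A match describes the letters and was not tested as a binding site.

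The cells fell into 7 clusters, computed without any complement gene. Names with "-like" rest on marker lists, and the rest are called by their leading genes. Of 9303 cells, 2373 formed a macrophage-like cluster, in which 6 of 8 macrophage markers were detected and Mrc1, the mannose receptor, led. The neutrophil lineage made up 1117 azurophil-granule progenitor-like cells (Mpo, Elane, Ctsg), 886 specific-granule neutrophil-like cells led by Ncam1 and Camp, 1934 led by Scrg1 and Ltf and 1121 mature neutrophil-like cells (Retnlg, Mmp9). A cluster of 1794 cells led by Gpnmb, Atp6v0d2 and Acod1 had few UMIs per cell (median 3025.5) and stayed unnamed, and 78 cells were migratory dendritic-like (Fscn1, Ccr7).

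The macrophage-like cluster was mixed. Clustered again by itself, it gave 5 subsets, led by Stfa3 and Stfa2 (726 cells), by Ctsg, Elane and Mpo (383 cells), by the mitotic genes Kif14 and Cenpf (511 cells), by Pf4, Ccl17, Cd36 and Dcstamp (730 cells, the Pf4 subset below) and by Cd7 and Blk (23 cells). These subsets were not named.

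C1q transcripts were found in the macrophage-like cells. Of 3072 UMIs of the 3 chains together (the C1q sum), 98.3% were in the macrophage-like cluster and 80.3% in its Pf4 subset alone, while the neutrophil-lineage and Gpnmb-led clusters together held 32. WT + ISO differed in this, since 80.3% of its 61 C1q UMIs were in the macrophage-like cluster and 12 were in the neutrophil-lineage clusters, among them 4 of its 5 C1qa UMIs. WT + PBS held 463 of the 3072 UMIs, so C1q values summed over libraries rest mostly on the libraries that are not wild-type. Summed over libraries, the C1q level was 78.4 CPM in the macrophage-like cluster, 274 in the Pf4 subset and 21.2 in the migratory dendritic-like cells (21 UMIs), and lay between 0.397 and 0.855 in the other 5 clusters. In the azurophil progenitor-like cells, which should lack C1q, 0.895% of cells had a C1q UMI at a median depth of 21802 UMIs, against 12.7% of the macrophage-like cells at 15431. After each cell was thinned to 2000 UMIs, in 1 random draw made for each gene or sum separately, the shares were 0 of 1085 cells, with a Clopper-Pearson upper limit of 0.339%, and 7.82%, while the separate draw for C1qc alone left 1 of the 1085 cells with a UMI. The ranges over libraries of the macrophage-like and migratory dendritic-like clusters overlapped (6.42 to 132 and 0 to 43.2 CPM). They did so because WT + ISO was low in the macrophage-like cluster, where the next lowest library, WT + PBS, had 49.6 CPM. The 12 migratory dendritic-like cells of WT + ISO held no C1q UMI.

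Even there most cells had none. In the macrophage-like cluster 2072 of 2373 cells had no C1q UMI, 65 had 1, 133 had 2 to 9 and 103 had 10 or more, and these 103 cells held 78.2% of the cluster's C1q UMIs. The limit of 10 is a point on a range and was chosen after the values were seen, with 28 cells at 7 to 9 UMIs and 20 at 10 to 12. Of the 103 rich cells 87 were in the Pf4 subset. The richest cell held 83 C1q UMIs, and over the 4 libraries the median depth of the rich cells (12707 UMIs) was below that of the other macrophage-like cells (15595.5 UMIs). Within the WT libraries it was not, at 16733.5 beside 16440 UMIs in WT + PBS and 37184 beside 18577 in WT + ISO, which held only 2 rich cells. Over the 4 libraries the rich cells had 532 CPM of Cfp and 132 of C3, beside 507 and 176 in the other macrophage-like cells. Since few cells carried most of the signal, counting intervals understate the error of C1q values.

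Over all cells C1qb made up 63.0% of the C1q UMIs, C1qc 21.8% and C1qa 15.1%. The C1qb share was 64.4% (59.8 to 68.7) in WT + PBS and 72.1% (59.2 to 82.9) in WT + ISO, and these intervals overlap. The chains were found in the same cells. In the Pf4 subset 68.7% of 217 cells with a C1qb UMI also had C1qa or C1qc, against 3.31% of the cells without C1qb.

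**Figure D1:**
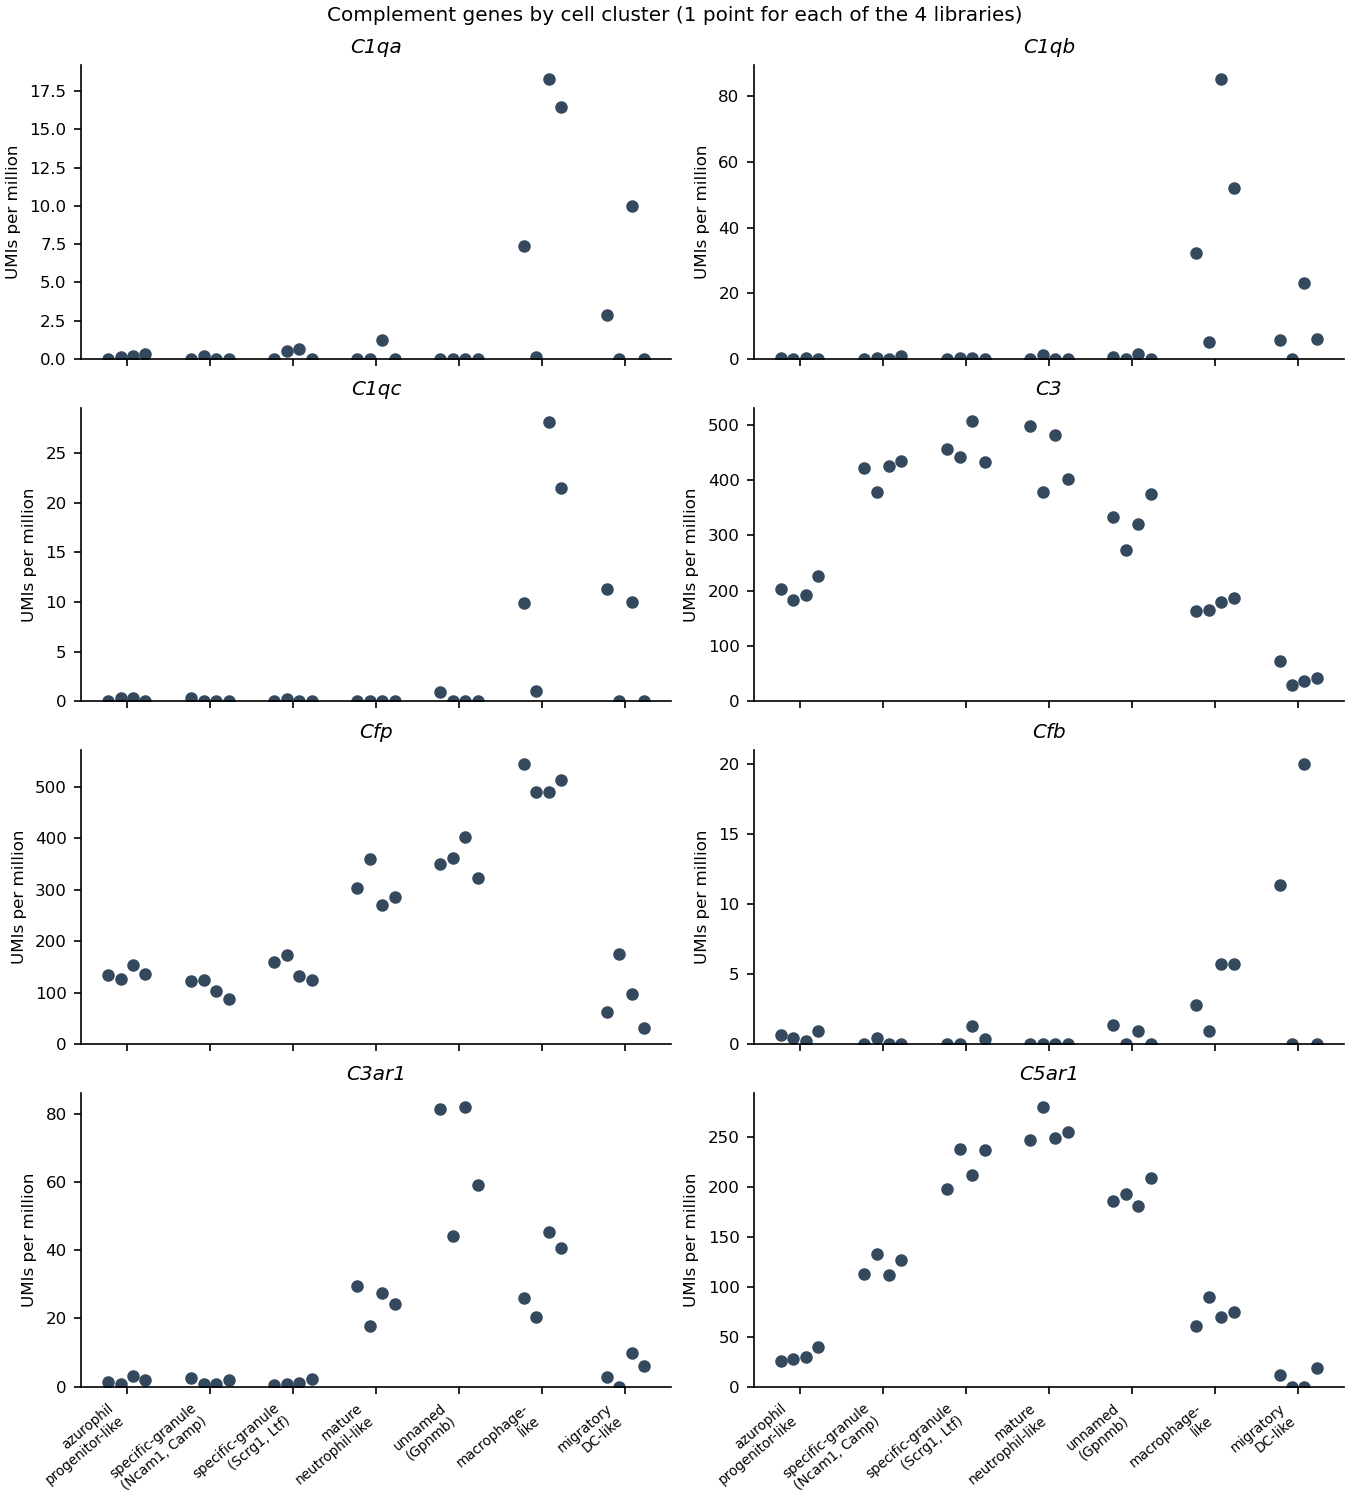
Level of each complement gene in each cell cluster, in CPM (counts per 1000000 UMIs of the cluster), with 1 point for each of the 4 libraries and a separate vertical axis for each gene. C1qa, C1qb and C1qc are near 0 outside the macrophage-like and migratory dendritic-like (DC-like) clusters, C3 is highest in the specific-granule and mature neutrophil-like clusters, Cfp in the macrophage-like cluster, C3ar1 in the Gpnmb-led and macrophage-like clusters, and C5ar1 in the mature neutrophil-like cells.

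With ISO, C1q was far lower in the WT cells. The C1q sum over all cells was 19.0 CPM in WT + PBS (463 UMIs) against 2.07 in WT + ISO (61 UMIs), and the intervals of these levels do not overlap. The level in WT + ISO was 9.15-fold below that in WT + PBS, a log2 ratio of -3.19 (-3.60 to -2.81).

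Each chain showed it. C1qb had 298 UMIs in WT + PBS (12.2 CPM) against 44 in WT + ISO (1.497), a log2 ratio of -3.03 (-3.52 to -2.57). C1qc had 97 and 12 UMIs (3.98 and 0.408 CPM), a ratio of -3.28 (-4.29 to -2.41). C1qa had 68 and 5 UMIs (2.79 and 0.170 CPM), a ratio of -4.03 (-5.70 to -2.74). For every chain the interval of the WT + ISO level lay below that of WT + PBS, and the intervals of the 3 ratios overlap.

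**Figure D2:**
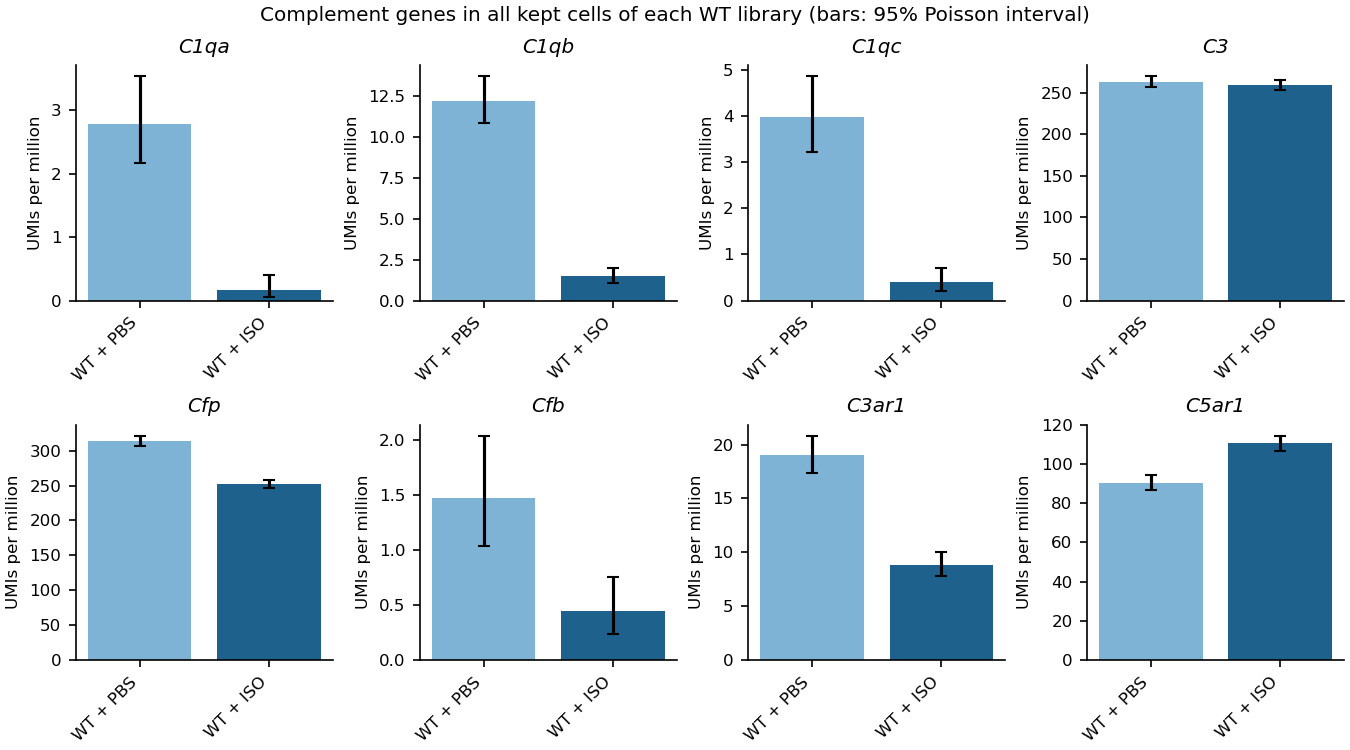
Level of each complement gene over all kept cells of each WT library, in CPM, with exact 95% Poisson intervals (counting error only, 1 library per group) and a separate vertical axis for each gene. The C1q chains, Cfb, C3ar1 and Cfp are lower in WT + ISO than in WT + PBS, C3 is at 263 and 259 CPM, and C5ar1 is higher in WT + ISO (111 CPM) than in WT + PBS (90.6 CPM).

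These differences stand beside those of all genes. Of 11852 genes with at least 50 UMIs over the WT libraries, 2.76% differed at least 2-fold between ISO and PBS (26 higher and 301 lower with ISO). Of the 7 members among them, 4 were at least 2-fold lower with ISO (C1qa, C1qb, C1qc and C3ar1) and none higher, with a median log2 ratio of -1.10 beside -0.02 for all genes. Only 7 genes, C1qa included, had a WT ratio as low as that of C1qa. The remaining member, Cfb, had 49 UMIs and so fell just under the minimum.

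Both the share of cells grouped into the Pf4 subset and their C1q level were lower in WT + ISO. The Pf4 subset made up 6.15% of cells in WT + PBS (136 cells) against 3.004% in WT + ISO (68 cells). Within that subset the C1q level was 195 CPM in WT + PBS against 42.0 in WT + ISO, a log2 ratio of -2.21 (-2.72 to -1.75). The 41 UMIs of WT + ISO came from 6 of its 68 cells (8.82%), against 44 of 136 cells in WT + PBS (32.4%). Thinned to 2000 UMIs per cell, these shares were 1.49% (1 cell) and 16.3%, and thinned to 1000 they were 4.41% (3 cells) and 14.8%. C1qa had no UMI in these 68 cells and 48 in WT + PBS. At the floor of 3 UMIs per library it was at least 8.53-fold lower, and the exact interval of the ratio is wider, reaching down to 6.67-fold lower. In this subset 3.28% of 6461 genes differed at least 2-fold between the WT libraries, and 2 of 6 members did, both lower with ISO (C1qb and C1qc). The members left out, C1qa with 48 UMIs and Cfb, fell under the minimum of 50 UMIs.

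In the whole macrophage-like cluster the C1q level was 49.6 CPM in WT + PBS against 6.42 in WT + ISO. The log2 ratio was -2.95 (-3.41 to -2.52), close to that over all cells. Of 10094 genes tested in this cluster 2% differed at least 2-fold between the WT libraries, 3 of 7 members among them, all lower with ISO (C1qa, C1qb and C1qc). C1qa had 67 UMIs with PBS and 1 with ISO (a log2 ratio of -5.81, -11.14 to -3.29). No gene was placed below it, but genes with no UMI in a library were set at 3 UMIs there. A gene with no UMI in WT + ISO could therefore be placed above C1qa, so C1qa is not shown to be the lowest.

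Cells with 10 or more C1q UMIs were 14 of 519 macrophage-like cells in WT + PBS (2.70%, 1.48 to 4.48) against 2 of 387 in WT + ISO (0.517%, 0.0626 to 1.85). These intervals overlap, as the cells are few. The share of macrophage-like cells with any C1q UMI after thinning to 2000 UMIs was 5.41% in WT + PBS against 0.518% in WT + ISO, with 1 shallower cell left out of each, and 11.2% and 2.33% without thinning. Thinned to 1000 UMIs the shares were 4.63% and 1.29%, and those of WT + ISO rest on 2 cells at 2000 UMIs and 5 at 1000, too few to give a fold between the libraries. In WT + PBS 10 cells held 56.4% of the C1q UMIs over all cells, and in WT + ISO 10 cells held 82.0%.

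**Figure D3:**
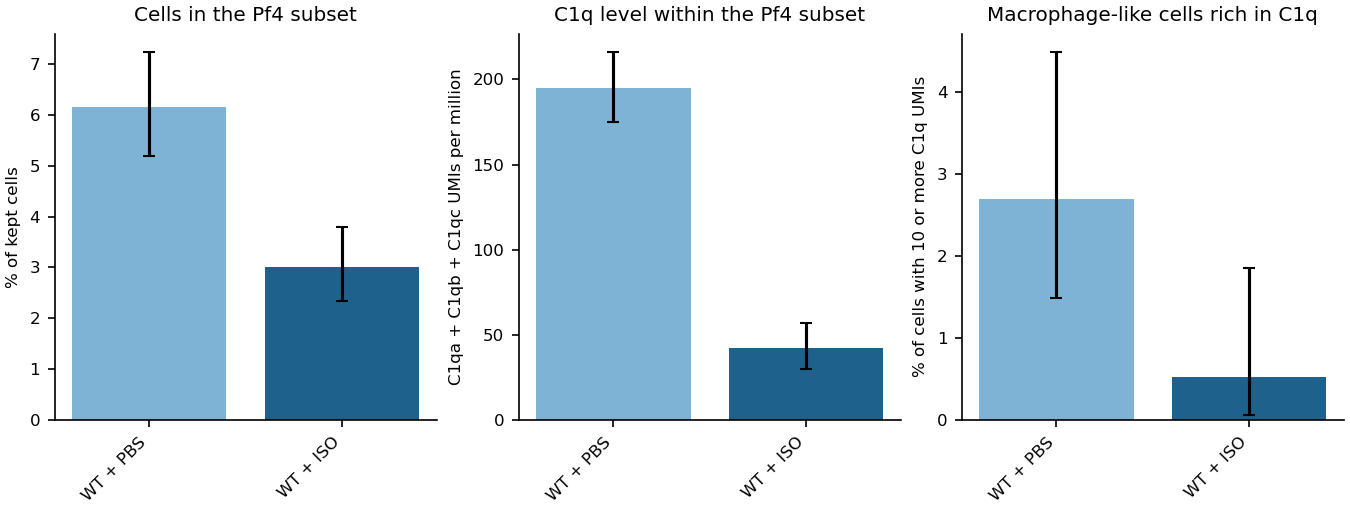
Left, share of kept cells in the Pf4 subset of the macrophage-like cluster. Middle, C1qa, C1qb and C1qc CPM within that subset. Right, share of macrophage-like cells with 10 or more C1q UMIs. Bars are the single WT libraries with exact 95% intervals (Clopper-Pearson for shares, Poisson for the level). In all 3 panels WT + ISO (3.004%, 42.0 CPM and 0.517%) is below WT + PBS (6.15%, 195 CPM and 2.70%), with overlapping intervals in the right panel.

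Some marker lists of cell types were lower with ISO too, and others were not. The summed level of the 8 macrophage markers, all detected in both libraries, was 375 CPM in WT + PBS against 227 in WT + ISO, and that of the 7 dendritic cell markers 854 and 285. Both lists were thus lower with ISO, as C1q was. The 4 eosinophil markers stood at 56.4 and 3.03, and the migratory dendritic cell markers at 110 and 30.1. The azurophil-granule progenitor markers went the other way, at 4162 and 5440, as did the specific-granule neutrophil markers, at 20672 and 27516. Mature neutrophil (1689 and 1737) and monocyte (1541 and 1556) markers were nearly level. The lists for basophils or mast cells, T or NK cells, B cells and erythroid cells held at most 51.3 CPM in either library. In sums over all cells, fewer cells of a type and less RNA per cell cannot be told apart, and the part of these markers in the C1q difference was not tested beyond the values within the Pf4 subset. Within that subset 4 of the 8 macrophage markers were lower in WT + ISO than in WT + PBS, among them Mrc1, Fcgr1 and, at 185 and 191 CPM, Adgre1, and 4 were higher (Csf1r, Cd68, Ms4a7 and Apoe). Mrc1, which leads the macrophage-like cluster, stood there at 450 CPM in WT + PBS against 166 in WT + ISO, so the shares describe cells as grouped here and not a cell type that was fixed independently.

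C3, the central component, was nearly level between the WT libraries. It stood at 263 CPM in WT + PBS against 259 in WT + ISO, a log2 ratio of -0.02 (-0.07 to 0.03). The ratio was -0.16 with every cluster held at its mean share of cells over the 4 libraries, and -0.08 with equal weight per cell. C3 was found across the clusters and, among the members that are components and not receptors, was the only one with its highest levels in granulocytes. As the mean of the 4 libraries it was 460 in the Scrg1- and Ltf-led specific-granule neutrophil-like cells, 441 in the mature neutrophil-like, 415 in the Ncam1- and Camp-led, 325 in the Gpnmb-led, 201 in the azurophil progenitor-like, 174 in the macrophage-like and 45.4 in the migratory dendritic-like cells. The first 3 overlapped in their ranges over libraries, as did the azurophil progenitor-like and macrophage-like clusters, and the ranges of the other neighbours in this order were apart.

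Within clusters C3 differed with ISO by at most 1.32-fold outside the 78 migratory dendritic-like cells. In the mature neutrophil-like cells it was 499 CPM in WT + PBS against 379 in WT + ISO (-0.40, -0.56 to -0.23). It was lower with ISO also in the Gpnmb-led cells (-0.28, -0.46 to -0.10), the Ncam1- and Camp-led cells (-0.16, -0.26 to -0.05) and the azurophil progenitor-like cells (-0.14, -0.25 to -0.04). In the Scrg1- and Ltf-led, macrophage-like and migratory dendritic-like cells the interval included 0.

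Properdin, which stabilizes the alternative pathway convertase, was highest in the macrophage-like cluster and was found in the others too. Cfp reached 509 CPM in the macrophage-like cluster (489 to 545 over libraries), 359 in the Gpnmb-led cluster (323 to 402) and 305 in the mature neutrophil-like cells (270 to 360), and lay at 90.9 to 147 in the other 4. The macrophage-like range lay above that of every other cluster. This cluster held 64.0% of all Cfp UMIs, and 50.4% of those of WT + ISO. It made up 25.5% of cells, with a median of 15431 UMIs per cell beside 8428 over all cells. Cfp did not follow C1q within that cluster. The Pf4 subset had 518 CPM of Cfp and the other subsets 477 to 514, apart from 646 in the 23 cells led by Cd7. Those other subsets were lower in C1q but not free of it, and the one led by Kif14 and Cenpf held 472 C1q UMIs. Over all cells Cfp was 315 in WT + PBS against 252 in WT + ISO, a ratio of -0.32 (-0.36 to -0.27). WT + ISO was again the lower, also within the macrophage-like cluster (-0.16, -0.22 to -0.09) and its Pf4 subset (-0.26, -0.42 to -0.10), whereas the mature neutrophil-like cells (0.25, 0.06 to 0.45) and the few migratory dendritic-like cells (1.49, 0.64 to 2.35, from 30 UMIs with ISO and 22 with PBS) had more with ISO. In the other 4 clusters the interval included 0. With every cluster held at its mean share of cells over the 4 libraries the WT ratio was -0.01. That step also weighs clusters by cells and not by UMIs, and equal weight per cell without fixed shares gave -0.20. The share of macrophage-like cells was 23.5% in WT + PBS against 17.1% in WT + ISO.

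Factor B, which supplies the protease of the alternative pathway convertase, was scarce. Cfb had 36 UMIs in WT + PBS (1.48 CPM) against 13 in WT + ISO (0.442), and 82.1% of its 190 UMIs over the 4 libraries were in the macrophage-like cluster. Like C1q it was lower with ISO, with a ratio of -1.74 (-2.78 to -0.79). Unlike C1q, its UMIs were spread over many cells, 163 cells for 190 UMIs, and the 103 C1q-rich cells held 6 of them, 4.16 CPM beside 4.05 in the other macrophage-like cells. Another 10 were in the migratory dendritic-like cells, where the mean level of the 4 libraries was 7.82 CPM (0 to 19.9). That was above the 3.77 CPM (0.917 to 5.73) of the macrophage-like cluster, with overlapping ranges.

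The receptors had patterns of their own. C3ar1, the C3a receptor, was found in the Gpnmb-led cluster (66.7 CPM as the mean of the libraries, 44.2 to 82.0), the macrophage-like cluster (33.0, 20.3 to 45.3) and the mature neutrophil-like cells (24.7, 17.8 to 29.5), and lay at 4.71 or below elsewhere. Neighbours among these 3 overlapped in their ranges, and the third lay above the rest. Over all cells C3ar1 was 19.0 in WT + PBS (464 UMIs) against 8.84 in WT + ISO (260 UMIs). Thus WT + ISO was the lower, with a ratio of -1.10 (-1.33 to -0.88).

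Cell makeup moved with that difference too. The Gpnmb-led cluster, the one highest in C3ar1, was 25.6% of cells in WT + PBS against 14.1% in WT + ISO. Within it C3ar1 was 81.5 CPM in WT + PBS against 44.2 in WT + ISO, a ratio of -0.88 (-1.33 to -0.45). Within the macrophage-like cluster the ratio was -0.35 (-0.65 to -0.05), but it was 0.32 (-0.28 to 0.91) in the Pf4 subset and 0.35 in the cluster rebuilt without called doublets. With clusters at fixed shares of cells the ratio over all cells was -0.71, and with equal weight per cell without fixed shares it was -1.40.

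C5ar1, the C5a receptor, was the only member higher with ISO in WT over all cells. It stood at 90.6 CPM in WT + PBS against 111 in WT + ISO, a log2 ratio of 0.29 (0.21 to 0.37). Under other processing this ratio ran from 0.13, with equal weight per cell and so outside that interval, to 0.34. Along the neutrophil lineage its level went from 30.5 in the azurophil progenitor-like cells through 121 and 221 in the specific-granule clusters to 257 in the mature neutrophil-like cells (means of the 4 libraries), and the ranges over libraries of these 4 clusters did not overlap. The Gpnmb-led cluster had 192, overlapping the Scrg1- and Ltf-led cells, and the macrophage-like cluster 73.7.

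In the macrophage-like cluster C5ar1 was 61.0 CPM in WT + PBS against 89.7 in WT + ISO, a ratio of 0.56 (0.39 to 0.72). In the Pf4 subset the ratio was 0.60 (0.19 to 1.01), where C1q was 4.64-fold lower in the same 68 cells of WT + ISO.

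**Figure D4:**
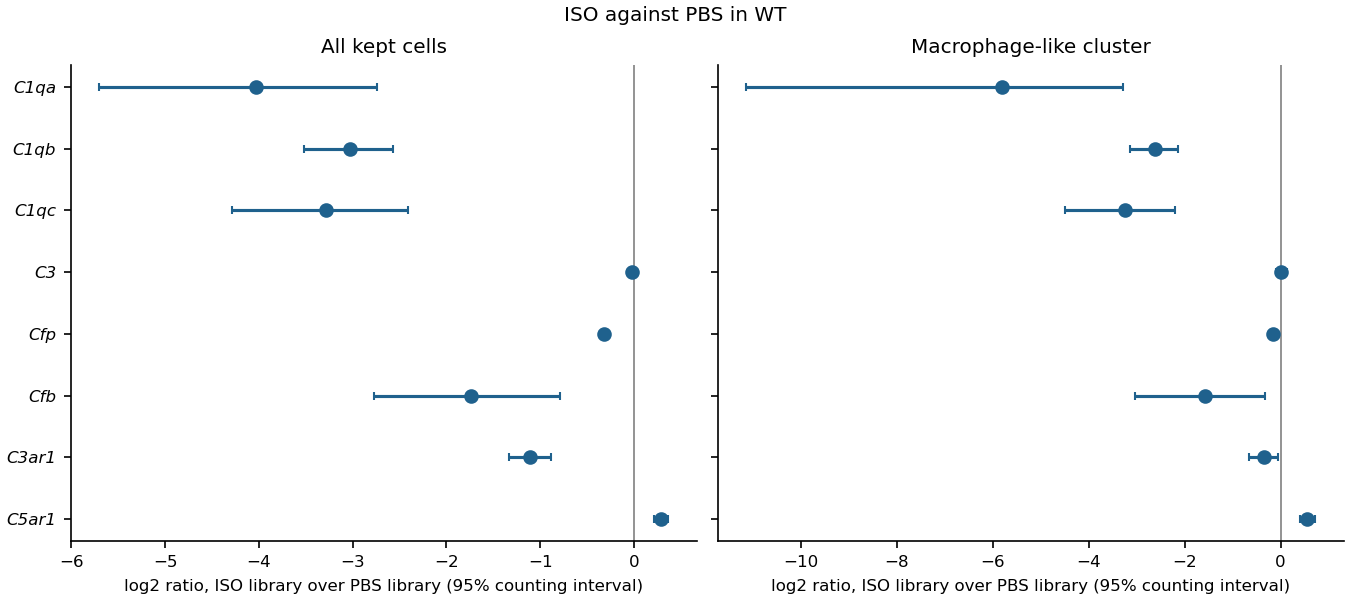
Log2 ratio of the WT + ISO library over the WT + PBS library for each member, over all kept cells (left) and in the macrophage-like cluster (right, wider axis), with exact 95% counting intervals. The C1q chains lie between -4.03 and -3.03 over all cells and between -5.81 and -2.63 in the macrophage-like cluster, and C5ar1 lies above 0 in both panels.

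The genes whose levels followed each member most closely were sought over 24 sums of 50 or more cells of 1 cluster in 1 library, by Pearson's r of log2(CPM + 1), among 9222 genes off the complement list. These sums share libraries and cell types, and the r is a description. For the C1q sum they were Lepr (0.96), Fcrls (0.96) and Apbb2 (0.96), the first encoding the leptin receptor. C1qb was most like Lepr (0.97), Apbb2 (0.97) and Timp1 (0.96), C1qc like Fcrls (0.95), Mrc1 (0.95) and Asgr2 (0.95), and C1qa like Fcrls (0.90), Timp1 (0.89) and Mertk (0.88), a receptor for dying cells. Several of these genes led the macrophage-like cluster.

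C3 was most like Sorl1 (0.98), Crispld2 (0.97) and D030055H07Rik (0.96), and Cfp like Msr1 (0.98), the macrophage scavenger receptor, Shtn1 (0.98) and Cgnl1 (0.97). Cfb was most like Mertk (0.88), Mrc1 (0.87) and Lepr (0.87). Among the receptors, C3ar1 was most like Mob3b (0.97), Sirpb1c (0.97) and the C-type lectin Clec4n (0.97), and C5ar1 like Ampd3 (0.98).

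Many genes of the rest of the complement system had few UMIs in these cells. Of 44 further complement genes 17 had at least 50 UMIs over the 4 libraries and 6 had none, among them Mbl1, Mbl2 and C6. Of all 32285 genes, 11852 had at least 50 UMIs over the WT libraries alone, so the count of 17 is not read as a trait of complement genes. With ISO none of the 17 was at least 2-fold higher and 1, Itgax, at least 2-fold lower in WT (-1.23, -1.42 to -1.04), and the median of the 17 was -0.02. Among the 11852 genes, picked over the WT libraries and not over all 4, 2.76% differed at least 2-fold. The count of 1 in 17 is thus not read as a trait either. Itgax, which encodes the CD11c chain of complement receptor 4, was named after its value was seen and had 85.0% of its 2583 UMIs in the macrophage-like cluster. C1s1, a protease that acts with C1q, had 66 UMIs over the 4 libraries, and C1ra had 279.

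The 6 of these genes with the most UMIs did not share the pattern of C1q. Itgam, the CD11b chain on which the cells were sorted, was 336 CPM in WT + PBS against 290 in WT + ISO, and Itgb2, its partner chain, 201 and 185. C1qbp, a mainly mitochondrial protein named for its binding to C1q, was 138 and 160, and 53.0% of its UMIs were in the azurophil progenitor-like cells. Fcnb, a ficolin that starts the lectin pathway, was 112 and 113 and reached 271 in the Ncam1- and Camp-led cells and 180 in the azurophil progenitor-like cells, beside 17.2 in the macrophage-like cluster. Cr1l, which encodes the regulator Crry, was 35.9 and 35.3, and Cd93, once taken for a C1q receptor, 32.5 and 33.7. The log2 ratios of the 6 between the WT libraries lay between -0.21 and 0.22.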

How the data were processed

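Single-cell RNA-seq of live CD11b+ MDSCs was performed on the 10X Genomics platform in 4 multiplexed libraries. The authors deposited the data as raw counts of UMIs for every gene in every cell. Per the labels Cell Ranger 6.0.0, Seurat and mm10 were used, whereas the file headers name Cell Ranger 7.0.0. The handling of introns was not given in the sources used here. The 12 multiplexing tags were used only to count the leading tag of each cell and the share of each library's own tag.

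Of 9525 cells, 9303 passed limits of 200 detected genes and 10% mitochondrial UMIs. Counts were clustered with scanpy 1.11.5 (30 principal components of 2000 variable genes, 15 neighbours, Leiden resolution 0.4, seed 0) without complement genes. A name was given where 3 or more markers were each detected in 10% of cells, averaged a log2 ratio of 1 or more over the rest and included 1 of the 10 leading genes. Scrublet called 17 doublets (0.183%), too few for a working call, and they were kept. UMIs were summed per library and cluster and divided by the total UMIs of the same cells, and intervals came from scipy 1.17.1. Ratios were checked on simulated data. Percentages of genes past 2-fold used genes with at least 50 UMIs over the 2 libraries.

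The members and lists were chosen with earlier results of these data known. Named genes were the 8 members, the 6 most abundant of the wider list, and the 3 most similar genes of each member. Some named genes, and comparisons of the other 2 libraries, are not reported here. Similarity was ranked among genes with at least 500 UMIs. The read-through gene Gm20547 (C2 and Cfb), also on the list of named genes, was not analysed here. Motifs were chosen after the values were seen. Gene positions and promoters are RefSeq GRCm38.p6, the assembly that mm10 names, and 50 bases after the start and any base inside the annotated gene were not printed.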

Additional observations from a re-analysis of the deposited data

Results flagged for a closer look

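In the multiplexing tags, which enter no comparison, 9 of 2103 deposited cells of 1 library had more UMIs of another library's tag than of their own library's. This library was neither WT + PBS nor WT + ISO. Of its tag UMIs 89.9% were of its own tag, beside 95.4% to 97.9% in the other 3.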

How the results depend on the processing

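The C1q ratio of ISO over PBS in WT kept its direction under every alternative that gave a value. Over all cells it ran from -3.50 to -2.17. Equal weight per cell gave -3.50. Holding the clusters at their mean shares of cells gave -2.65, and holding the sub-clusters as well (chosen after seeing the data) gave -2.17. These fixed shares also weigh clusters by cells and not by UMIs. Within the macrophage-like class, equal weight per cell gave -3.63, the strict cell filter gave -2.31, and removing called doublets, after which 1015 cells met the naming rule, gave -2.20. At resolution 1.0 no cluster met the naming rule, so that alternative gave no value, and the Pf4-led cluster there (758 cells, chosen after seeing the data) gave -2.89. A direction turned for C3ar1 in the macrophage-like class without called doublets (0.35). The causes were not tested. Other scalings shifted all ratios together by up to 0.0478 in size. With minimums of 10 and 1 UMIs, 6.97% and 10.2% of genes differed at least 2-fold. No paired analysis was possible because no group held more than a single library. Low counts limit C1q in WT + ISO, where 61 UMIs came from 21 cells, and Cfb, with 13. The library itself was not shallow, with a median of 10252 UMIs per cell beside 8088.5 in WT + PBS.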

Other observations

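Cd55, which encodes decay-accelerating factor, had 50.7 CPM in the Scrg1- and Ltf-led cells and 40.6 in the mature neutrophil-like cells, beside 1.61 in the macrophage-like cluster. Over all cells it was 11.4 in WT + PBS against 15.3 in WT + ISO, a log2 ratio of 0.43 (0.21 to 0.65). Clu, which encodes clusterin, an inhibitor of the terminal complex, had 75.6% of its 1253 UMIs in the azurophil progenitor-like cells. C5ar2, the neighbour of C5ar1, was 11.8 in WT + PBS against 8.44 in WT + ISO. Its ISO ratio was -0.48 (-0.73 to -0.23), where C5ar1 had 0.29. These genes were named after their values were seen.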
